A study of Mus musculus with 37 samples.

Results

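Stra8 and 7 genes that surround it in retinoic acid signalling and meiotic entry were followed through primordial germ cells of the mouse embryo (PGCs, which give rise to eggs and sperm) that lacked or kept the maintenance DNA methyltransferase Dnmt1. The 8 genes were taken by symbol from the 24318 genes of each deposited expression table, and all 8 were found in both tables. They are Stra8 and Ythdc2, which act at meiotic entry, the homeobox genes Msx1 and Msx2, the retinoic acid receptors Rara, Rarb and Rarg, and Cyp26b1, which degrades retinoic acid.

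The DCKO group, labelled Dnmt1 -/-, was a conditional knockout in which Blimp1-Cre acts on a floxed Dnmt1 allele (2lox), and the control group is labelled wild type. Embryos of both groups came from females that carried the Oct4-IRES-Gfp reporter and 2 floxed Dnmt1 alleles, mated to Blimp1-Cre males, and the labels do not say which of these alleles the controls carried. Blimp1 is a gene of PGC specification, so its Cre acts early in this lineage. GFP-positive cells were sorted at E10.5 or E11.5 (embryonic day), and their polyadenylated RNA was amplified before sequencing. At E10.5 there were 2 female and 1 male DCKO libraries, against 2 female and 2 male control libraries. At E11.5 there were 6 female and 4 male DCKO libraries, against 4 female and 4 male control libraries. Nothing in the labels says whether replicate libraries stem from different embryos, so p-values reflect the spread of these samples only, part of which could be technical. The labels describe 37 samples, and the 12 from E13.5 were not analysed here.

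Retinoic acid is made from vitamin A by cells beside the germ cells, enters the nucleus and binds receptors of the RAR family, which pair with RXR receptors on target genes. In the fetal ovary it induces Stra8, which switches on the genes of meiotic prophase, whereas the fetal testis degrades it through CYP26B1. BMP signals from the gonad act beside retinoic acid, and MSX1 and MSX2 have been placed between these signals and meiotic entry in female germ cells. Ythdc2 encodes an RNA helicase that germ cells need to leave the mitotic programme. The stages measured here precede meiotic prophase, which begins later in the fetal ovary.

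Promoter sequences of 3 members are shown because they bracket the family: Stra8, the gene that retinoic acid induces at meiotic entry, Rarb, a receptor gene that is itself a classical retinoic acid target, and Msx2, the member that differed most between the sexes. Each runs from 250 bases before the start site to 50 bases after it in the RefSeq table of the GRCm38.p6 build. Capitals mark the core motif of retinoic acid receptors, searched on both strands in 4 spellings: AGGTCA with its variant GGGTCA, and likewise AGTTCA with its variant GGTTCA.
Stra8, chr6:34920698-34920997, plus strand: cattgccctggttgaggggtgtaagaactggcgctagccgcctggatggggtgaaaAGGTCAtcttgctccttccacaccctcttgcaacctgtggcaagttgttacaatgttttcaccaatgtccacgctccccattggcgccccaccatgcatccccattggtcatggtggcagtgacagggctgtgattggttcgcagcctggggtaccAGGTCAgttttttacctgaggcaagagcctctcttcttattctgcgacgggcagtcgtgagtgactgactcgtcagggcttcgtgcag
Rarb, chr14:16575427-16575726, minus strand: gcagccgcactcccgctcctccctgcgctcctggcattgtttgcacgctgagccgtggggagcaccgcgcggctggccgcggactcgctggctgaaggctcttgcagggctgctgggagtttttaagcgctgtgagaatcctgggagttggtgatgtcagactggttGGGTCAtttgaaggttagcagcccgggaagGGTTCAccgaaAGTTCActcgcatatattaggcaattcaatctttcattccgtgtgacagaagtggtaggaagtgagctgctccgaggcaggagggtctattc
Msx2, chr13:53472731-53473030, minus strand: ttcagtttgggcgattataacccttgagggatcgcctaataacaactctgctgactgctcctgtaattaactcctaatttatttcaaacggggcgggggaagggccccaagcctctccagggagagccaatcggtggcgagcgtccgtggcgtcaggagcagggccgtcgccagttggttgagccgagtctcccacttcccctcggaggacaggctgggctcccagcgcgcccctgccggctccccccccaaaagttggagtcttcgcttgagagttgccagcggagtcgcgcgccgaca
The Stra8 window held 2 core motifs, which begin 194 and 38 bases before the start site. In the Rarb window 3 core motifs begin 83, 53 and 42 bases before the start site, and the last 2 form a direct repeat spaced by 5 bases, the arrangement that RAR and RXR pairs are known to bind. No core motif was found in the Msx2 window. Single core motifs are common, being present in 43.7% of the 32851 promoter windows in the table, whereas a direct repeat spaced by 5 was present in 0.0974% (32 windows). Direct repeats spaced by 1 or 2, present in 0.222% and 0.268% of windows, were found in no member's window. The E-box CACGTG was present in 7.15% of windows and, among the members, in 2 overlapping Rara windows, and the germline-gene motif GGCGGGAA, present in 2.19%, was in none. The number of CG dinucleotides, the site at which DNMT1 acts, was 10 in the Stra8 window, 17 in the Rarb window and 22 in the Msx2 window, against a median of 7 over all windows. Of the 8 members 7 matched the table, with 11 windows in all, and Ythdc2 did not.

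The deposited unit was RPKM, reads scaled by transcript length and library size so that levels of different genes can be set side by side. How the amplification affected such levels was not tested. The RPKM of a library summed to between 669740 and 1121158 at E10.5 and between 516450 and 1027688 at E11.5. The main models used the values without further scaling. The depth behind each value cannot be recovered from the tables, so no counting interval is given, and a value of exactly 0 may be a failed estimate and is written as listed at 0. Between 9125 and 11095 genes reached 1 RPKM in an E10.5 library and between 8277 and 13200 in an E11.5 library. Dnmt1 itself was between 14.9 and 29.6 RPKM in DCKO libraries and between 74.1 and 107 RPKM in controls at E10.5, and between 13.0 and 59.4 RPKM in DCKO libraries and between 72.9 and 296 RPKM in controls at E11.5, with no overlap at either stage. Of 14 PGC markers, 13 or 14 reached 1 RPKM in every library. Markers of other cells that a sort could carry (36 genes of gonadal and mesonephric somatic cells, endothelium and blood) summed to between 120 and 2250 RPKM in E11.5 DCKO libraries and between 186 and 3305 RPKM in E11.5 controls. Male control 3 stood apart, with the highest somatic sum and a PGC marker sum of 441 RPKM, against 1983 to 6616 RPKM in the other E11.5 libraries. Female DCKO 4 had the next highest somatic sum. Among the 36 markers, Nr5a1 was listed at 0 in 11 and Pax2 in 12 of the 18 E11.5 libraries. Fn1 and Pecam1 were at no less than 75.9 and 21.2 RPKM in all 18, and whether PGCs contribute to them was not tested. In male DCKO 4, which had the lowest somatic sum, 7 of the 36 markers reached 1 RPKM. In such bulk samples, fewer cells of a type and less RNA per cell cannot be told apart.

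The members spanned a wide range of levels at E11.5. Rara was the most abundant by its median over the 18 libraries, 19.5 RPKM, followed by Msx2 at 9.55 RPKM and Ythdc2 at 4.43 RPKM. Rarg had a median of 1.41 RPKM and Rarb of 0.524 RPKM, that of Cyp26b1 was 0.0140 RPKM, and those of Stra8 and Msx1 were 0. The ranges over libraries of each member and the next in this order overlapped. At E10.5, in a separate table, Msx2 led with a median of 38.4 RPKM, ahead of Rara at 6.30 RPKM and Ythdc2 at 3.28 RPKM. The tables may have been normalized separately, so the stages are set side by side only and were not tested against each other.

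**Figure D1:**
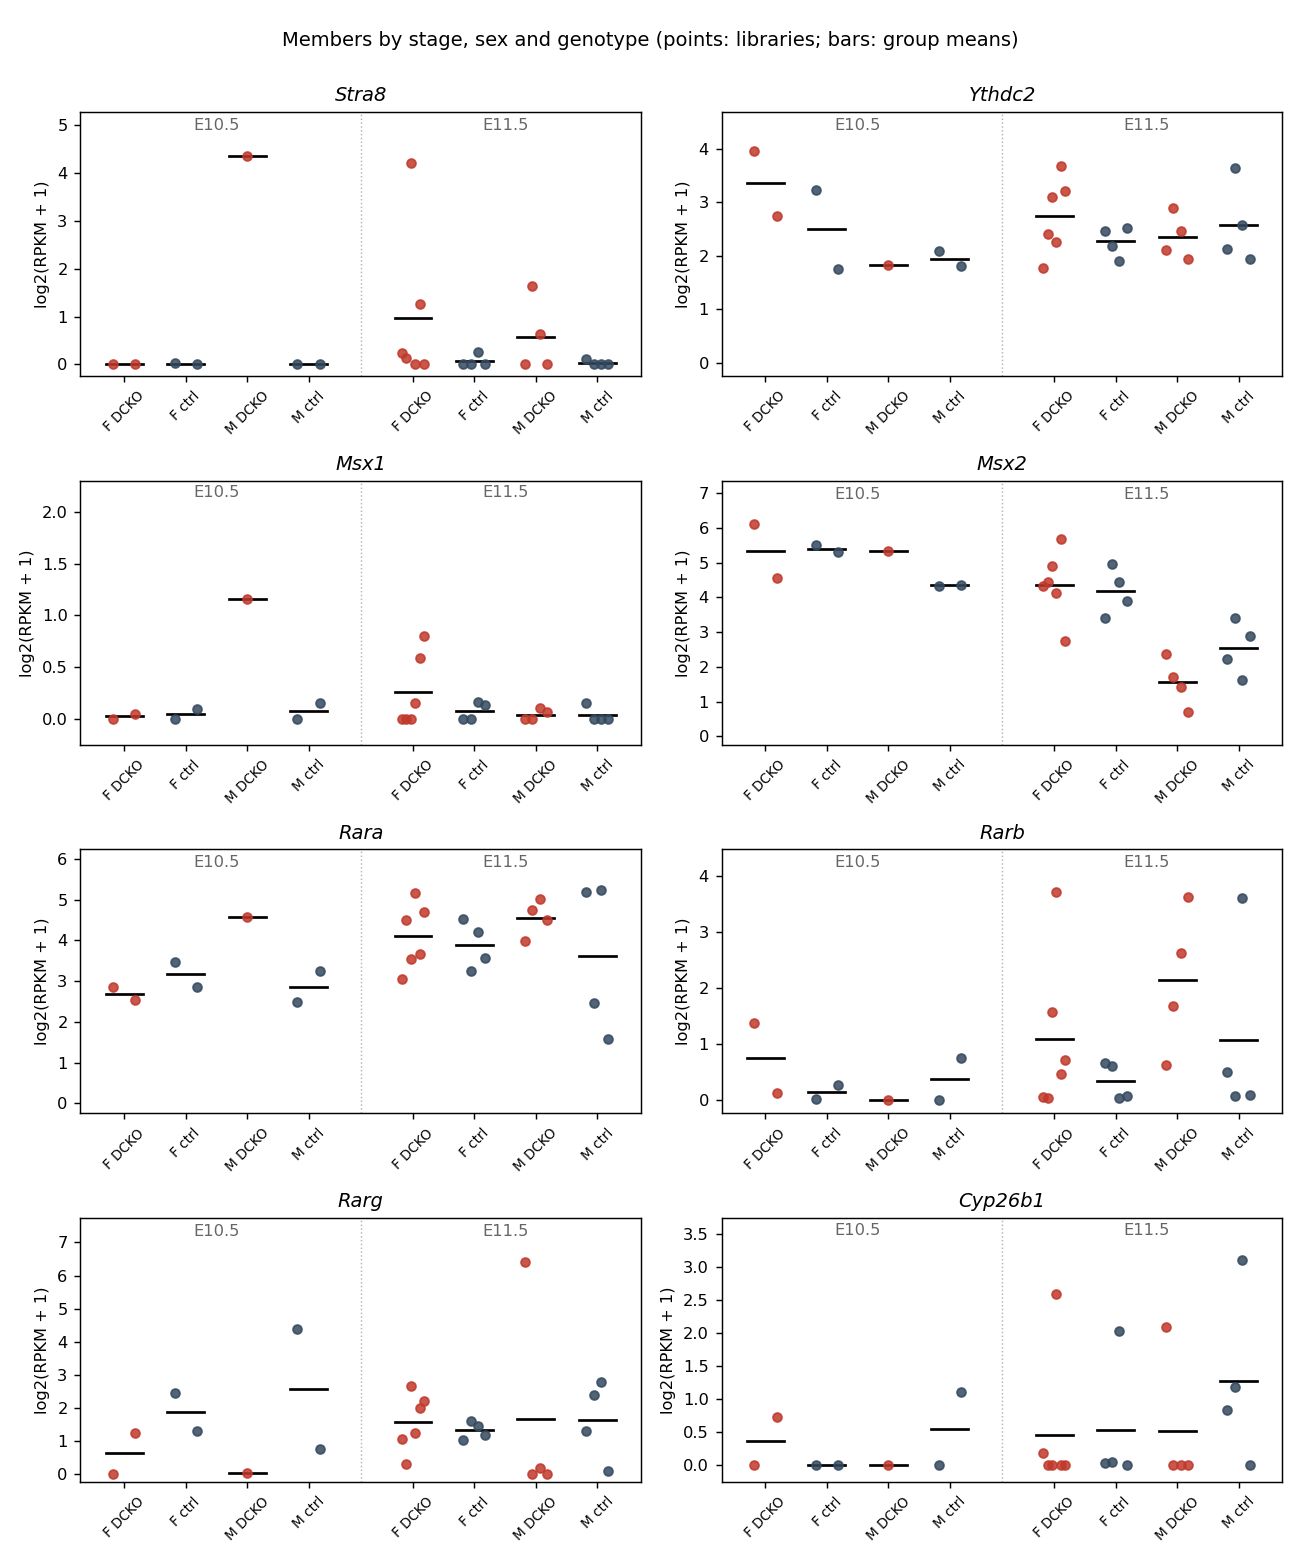
Expression of the 8 genes as log2(RPKM + 1), by stage, sex (F, female; M, male) and genotype, with DCKO in red and control in dark blue. Points are libraries and bars are group means. Stra8 leaves the floor in single DCKO libraries, up to 19.7 RPKM, and Msx2 is lower in E11.5 males than in E11.5 females.

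Stra8 RNA was near the floor in most libraries and clearly present in a few, all of them DCKO. At E11.5 the 6 female DCKO libraries had a lowest value of 0, a median of 0.140 and a highest value of 17.4 RPKM, and the 4 male DCKO libraries had 0, 2.101, 0.544 and 0 RPKM. The 4 female control libraries had 0, 0, 0.198 and 0 RPKM, and the 4 male control libraries had 0.0791, 0, 0 and 0 RPKM. The DCKO libraries that reached 1 RPKM were female DCKO 3 (17.4 RPKM), female DCKO 5 (1.41 RPKM) and male DCKO 2 (2.101 RPKM), and the other 7 were at 0.544 RPKM or less, so the groups overlapped at the low end. At E10.5 Stra8 was at 0 and 0 RPKM in the female DCKO libraries and at 19.7 RPKM in the male DCKO library, against 0.0235 and 0 RPKM in female controls and 0 and 0 RPKM in male controls. The single male DCKO library alone was high at that stage.

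The genotype difference of Stra8 did not pass the threshold, an adjusted p under 0.05 in a limma model fitted over all tested genes on log2(RPKM + 1). At E11.5 it was 0.72 ± 0.50 (log2 fold change, DCKO minus control, SE; 95% interval -0.33 to 1.78, limma adjusted p = 0.946), with 10 DCKO and 8 control libraries. It was 0.40 without female DCKO 3 and 1.75 with a pseudocount of 0.1 in place of 1. At E10.5 it was 1.74 ± 0.95 (95% interval -0.41 to 3.89, limma adjusted p = 0.991), and it was -0.02 without the single male DCKO library, which alone decided it. Genes were tested if their mean over a stage reached 1 RPKM, and Stra8 did so only through DCKO libraries. Its mean was 1.22 RPKM at E11.5 and 2.81 RPKM at E10.5, with 0.035 and 0.0059 RPKM in controls. Its place among the tested genes thus rests on the group in which it was high. Fits without a library kept the same genes. Counting libraries instead, a rule chosen after the values were seen, 3 of 10 DCKO libraries and 0 of 8 control libraries reached 1 RPKM at E11.5, and 1 of 3 and 0 of 4 did so at E10.5. Among all genes, 0.407% of the 16218 detected at E11.5 reached 1 RPKM in at least 3 DCKO libraries and in no control, as Stra8 did. Under the looser rule of at least 1 DCKO library and no control it was 6.59% of them at E11.5 and 7.13% of the 13931 genes detected at E10.5, and 0.751% of 16636 genes met that rule at both stages. The opposite pattern, in controls only, held for 7.2% of genes at E11.5 and 11.1% at E10.5.

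The 3 E11.5 libraries in which Stra8 reached 1 RPKM had somatic marker means of 1.04 (female DCKO 3), 0.895 (female DCKO 5) and 0.654 (male DCKO 2). On this log2(RPKM + 1) scale the 18 libraries ran between 0.621 and 4.33, with a median of 1.40. Across the 18 libraries Stra8 and the somatic mean had a Spearman correlation of -0.299, given as a description over points that share their preparation. Whether other cell types bear on the E11.5 Stra8 values was not tested. At E10.5 the male DCKO library with Stra8 had a blood marker sum of 2152 RPKM, against 4.91 and 7.74 RPKM in the female DCKO libraries and 3.23 to 941 RPKM in controls, and whether this bears on its Stra8 value was not tested.

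Ythdc2, the RNA helicase, was present in all 25 libraries and showed no genotype difference past the threshold. Its E11.5 mean was 5.53 ± 2.96 RPKM in DCKO libraries (SD, n = 10) and 4.78 ± 2.83 RPKM in control libraries (SD, n = 8). The ranges, 2.41 to 11.8 RPKM in DCKO and 2.74 to 11.45 RPKM in controls, overlapped almost fully. The log2 difference was 0.12 ± 0.34 (SE; 95% interval -0.60 to 0.84, limma adjusted p = 0.992). At E10.5 Ythdc2 stood at 14.6, 5.71 and 2.58 RPKM in the DCKO libraries, against 8.43, 2.38, 3.28 and 2.49 RPKM in controls, and the difference was 0.47 ± 0.69 (SE; 95% interval -1.09 to 2.03, limma adjusted p = 0.991). It was 0.0036 without female control 2 and 0.07 without female DCKO 1.

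Of the homeobox pair, Msx2 had the higher value in 7 of 7 libraries at E10.5 and 18 of 18 at E11.5. Msx1 was listed at 0 in 10 of 18 E11.5 libraries and did not exceed 0.744 RPKM, reached in female DCKO 6. At E10.5 Msx1 stood at 0, 0.0355 and 1.24 RPKM in DCKO libraries, against 0, 0.0677, 0 and 0.110 RPKM in controls, and the value of 1.24 RPKM came from the male DCKO library that also held Stra8. Msx1 fell under the filter of a mean of 1 RPKM at both stages and was not tested.

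Msx2 was the member with the largest difference between the sexes. At E11.5 the 6 female DCKO libraries ran from a lowest value of 5.65 over a median of 19.96 to a highest value of 49.97 RPKM, and the 4 male DCKO libraries had 4.12, 2.29, 1.69 and 0.631 RPKM. The 4 female control libraries had 9.52, 30.1, 20.8 and 13.8 RPKM, and the 4 male control libraries had 3.69, 9.58, 2.09 and 6.43 RPKM. Every female DCKO library exceeded every male DCKO library, whereas in controls the highest male value lay just above the lowest female one. Over both genotypes the mean was 21.5 ± 12.6 RPKM in females (SD, n = 10) and 3.82 ± 2.93 RPKM in males (SD, n = 8).

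The log2 difference of Msx2 between the sexes, female minus male and averaged over genotypes, was 2.22 ± 0.40 (SE; 95% interval 1.39 to 3.06). Its limma p of 2.441e-05 was the sixth smallest of 12667 genes, and its adjusted p of 0.0515 missed the threshold. The threshold was passed by 5 genes, 0.0395% of those tested, and by no member. The difference was 2.81 within DCKO and 1.63 within controls, and the test of this change, the genotype by sex term, gave 1.18 ± 0.80 (SE; 95% interval -0.49 to 2.85, limma adjusted p = 0.995). No gene passed in that term, 0% of 12667 by limma, with 454 genes at an unadjusted p under 0.05. All female DCKO libraries exceeded all male DCKO libraries in 117 genes, 0.924% of those tested.

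Some other properties of the libraries bear on the Msx2 values. Without male control 3 the sex difference was 2.07 (limma adjusted p = 0.140), and without both libraries highest in somatic markers it was 2.097 (limma adjusted p = 0.164). With that marker mean added to the model it was 2.19 (limma adjusted p = 0.0408), and the Spearman correlation of Msx2 with it was -0.0568 over the 18 libraries. Sample titles carry a number in front of a dash, called the title number here, which may mark a shared origin although the labels do not say so, and only title numbers 90 and 92 held both sexes at E11.5. Under 92, female DCKO 6 had 5.65 RPKM and male DCKO 4 had 0.631 RPKM, and female control 4 had 13.8 RPKM and male control 4 had 6.43 RPKM. Under 90, female DCKO 4 and female control 3 had 16.3 and 20.8 RPKM, and male control 3 had 2.09 RPKM. Under 92 the female was higher within each genotype, although female DCKO 6 lay below male control 4, and under 90 the only male was male control 3, with a PGC marker sum of 441 RPKM. Title numbers 85, 87 and 91 held females only and 88 and 89 held males only. With title number as a block the difference was 2.23 (limma adjusted p = 0.423).

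At E10.5 the sexes were not tested against each other. Msx2 stood at 69.0 and 22.4 RPKM in the female DCKO libraries and 39.4 RPKM in the male DCKO library, against 44.8 and 38.4 RPKM in female controls and 19.2 and 19.5 RPKM in male controls. The female controls lay above the male controls, with 2 libraries of each, and the share of all genes doing so was not counted. The male DCKO library lay between the 2 female DCKO libraries. Only title number 67 held both sexes at E10.5. Under it male DCKO 1, at 39.4 RPKM, lay above female DCKO 2, at 22.4 RPKM, whereas female control 2, at 38.4 RPKM, lay above male control 2, at 19.5 RPKM. The genotype difference was 0.35 ± 0.49 at E10.5 (SE; 95% interval -0.76 to 1.47, limma adjusted p = 0.991) and -0.40 ± 0.40 at E11.5 (SE; 95% interval -1.23 to 0.44, limma adjusted p = 0.955). Without the male DCKO library the E10.5 value was -0.07.

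**Figure D2:**
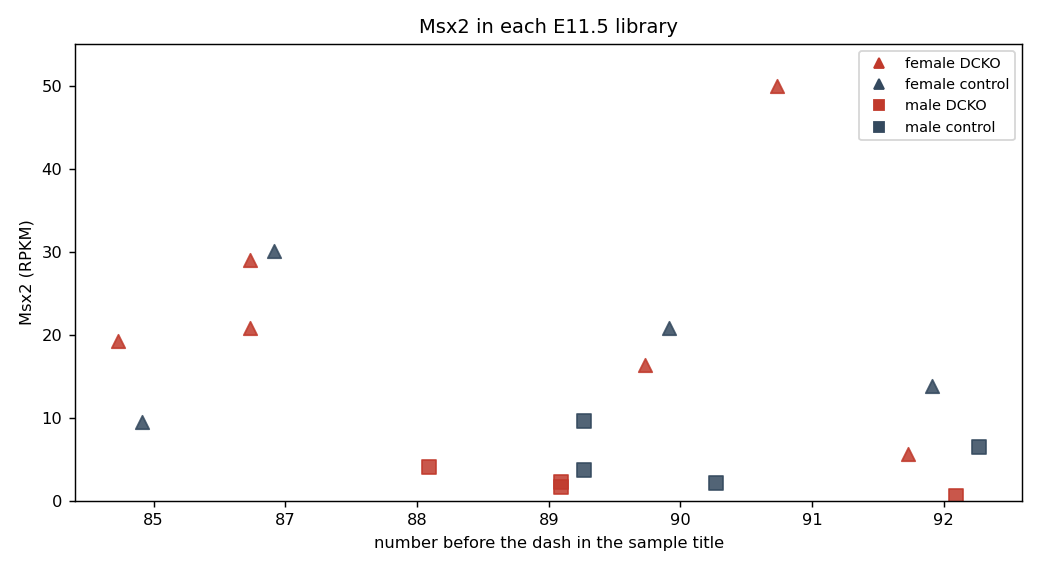
Msx2 in each of the 18 E11.5 libraries, in RPKM, by title number, which stands in front of the dash in each title. Triangles are female and squares male libraries, in red for DCKO and dark blue for control. The females run between 5.65 and 49.97 RPKM and the males between 0.631 and 9.58 RPKM, and 90 and 92 are the numbers with both sexes.

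Rara was the leading receptor of the RAR family, highest of the 3 in 6 of 7 libraries at E10.5 and 17 of 18 at E11.5. The exceptions were male control 1 at E10.5 and male DCKO 1 at E11.5, where Rarg was higher. At E11.5 Rara averaged 20.5 ± 9.19 RPKM in DCKO libraries (SD, n = 10, range 7.33 to 35.0) and 17.2 ± 13.4 RPKM in controls (SD, n = 8, range 1.98 to 36.9). Both the lowest and the highest value were in male controls, and the DCKO libraries lay between them. The log2 difference was 0.58 ± 0.47 (SE; 95% interval -0.42 to 1.57, limma adjusted p = 0.946), 0.24 without male control 4 and 0.38 without male control 2. At E10.5 Rara stood at 6.26, 4.76 and 22.7 RPKM in DCKO libraries, against 10.05, 6.30, 4.57 and 8.45 RPKM in controls. The high DCKO value again came from the single male DCKO library: the difference was 0.40 ± 0.65 (SE; 95% interval -1.08 to 1.88, limma adjusted p = 0.991) and -0.47 without it.

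Rarb, a receptor gene that retinoic acid also induces, was low in most libraries and exceeded 5 RPKM in 4. At E11.5 the 6 female DCKO libraries had a lowest value of 0.0236, a median of 0.500 and a highest value of 12.1 RPKM, and the 4 male DCKO libraries had 0.539, 2.18, 5.20 and 11.4 RPKM. The 4 female control libraries had 0.574, 0.510, 0.0249 and 0.0382 RPKM, and the 4 male control libraries had 0.413, 0.0450, 11.3 and 0.0578 RPKM. At least 1 RPKM was reached in 5 of 10 DCKO libraries and in 1 of 8 controls. This count, like that of Stra8, follows a rule chosen after the values were seen, and the share of all genes with such a split was not counted. The control that reached 1 RPKM was male control 3, the library richest in somatic markers, so the groups overlapped. The log2 difference was 0.91 ± 0.60 (SE; 95% interval -0.35 to 2.17, limma adjusted p = 0.935), and 1.34 without male control 3. In females it was 0.75 and in males 1.07. Female DCKO 4, with 12.1 RPKM, was the other library rich in somatic markers, whereas male DCKO 4, with 11.4 RPKM, had the lowest somatic mean of all, 0.621. At E10.5 Rarb stood at 1.57, 0.0776 and 0 RPKM in DCKO libraries, against 0.0121, 0.204, 0 and 0.666 RPKM in controls, and it was not tested there because its mean was under 1 RPKM.

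Rarg ran between 0.219 and 5.25 RPKM in female libraries and between 0 and 84.2 RPKM in male libraries at E11.5. Its 6 female DCKO libraries had a lowest value of 0.219, a median of 2.14 and a highest value of 5.25 RPKM, and its 4 male DCKO libraries had 84.2, 0, 0.138 and 0 RPKM. The 4 female control libraries had 1.02, 2.03, 1.72 and 1.27 RPKM, and the 4 male control libraries had 1.47, 4.19, 5.82 and 0.0548 RPKM. Apart from male DCKO 1 at 84.2 RPKM, every library was at 5.82 RPKM or less, and the groups overlapped. The log2 difference was 0.14 ± 0.73 (SE; 95% interval -1.40 to 1.68, limma adjusted p = 0.993), and it turned to -0.66 without male DCKO 1. At E10.5 Rarg stood at 0, 1.35 and 0.0189 RPKM in DCKO libraries, against 4.38, 1.44, 19.8 and 0.696 RPKM in controls. Male control 1, at 19.8 RPKM, was far above the rest, and the difference was -1.76 ± 0.98 (SE; 95% interval -3.99 to 0.47, limma adjusted p = 0.991), and -1.07 without that library.

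Cyp26b1, the enzyme that clears retinoic acid in the fetal testis, was listed at 0 in 9 of 18 E11.5 libraries and followed the markers of other cell types. The 6 female DCKO libraries had a lowest value of 0, a median of 0 and a highest value of 5.07 RPKM, and the 4 male DCKO libraries had 3.28, 0, 0 and 0 RPKM. The 4 female control libraries had 0.0279, 0.0411, 3.10 and 0 RPKM, and the 4 male control libraries had 0.798, 1.27, 7.59 and 0 RPKM. The 4 libraries above 2 RPKM, female DCKO 4, male DCKO 1, female control 3 and male control 3, also had the 4 highest somatic marker means, 3.78, 2.47, 2.09 and 4.33. Over the 18 libraries the Spearman correlation of Cyp26b1 with the somatic mean was 0.749, against 0.553 for Rarg, 0.385 for Rara, 0.176 for Msx1, -0.0485 for Rarb and -0.0712 for Ythdc2. These correlations are descriptions across libraries of unknown depth. The genotype difference of Cyp26b1 was -0.41 ± 0.52 (SE; 95% interval -1.50 to 0.68, limma adjusted p = 0.972), and -0.11 without male control 3. At E10.5 it stood at 0, 0.668 and 0 RPKM in DCKO libraries, against 0, 0, 0 and 1.16 RPKM in controls, and was not tested. The value of 1.16 RPKM was in male control 2, which had the highest somatic mean of that stage, 2.53.

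**Figure D3:**
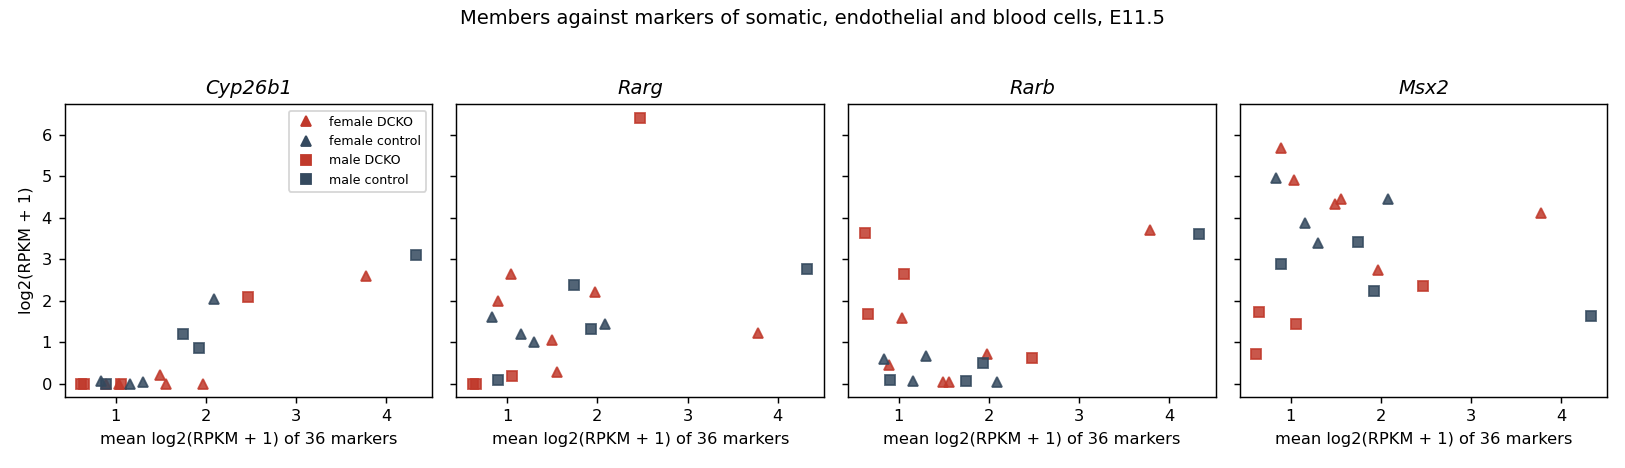
Cyp26b1, Rarg, Rarb and Msx2 in the 18 E11.5 libraries as log2(RPKM + 1), against the mean log2(RPKM + 1) of 36 markers of gonadal and mesonephric somatic cells, endothelium and blood. Triangles are female and squares male libraries, in red for DCKO and dark blue for control. Cyp26b1 leaves the floor to the right of the plot, and Msx2 shows no such order.

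Across the members, no genotype difference passed the threshold at either stage. At E10.5, 5 of 8 members were tested and 0 passed, where 0 of 11584 genes passed (0% by limma, with 358 genes at an unadjusted p under 0.05). At E11.5, 7 of 8 members were tested and 0 passed, where 3 of 12667 genes passed (0.0237%): Dnmt1, Npm1 and Peak1, all lower in DCKO. The intervals bound the differences loosely. At E11.5 the narrowest was that of Ythdc2, -0.60 to 0.84, and the widest that of Rarg, -1.40 to 1.68.

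**Figure D4:**
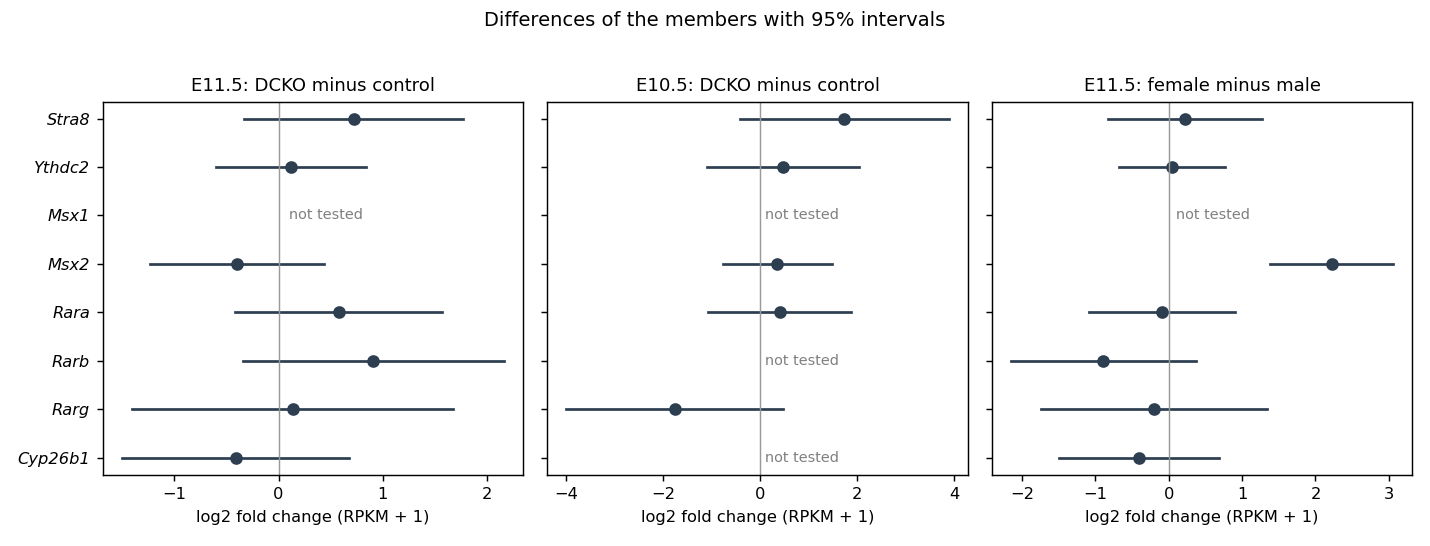
Differences of the members on the log2(RPKM + 1) scale with 95% intervals from limma, DCKO minus control at E11.5 and E10.5 and female minus male at E11.5. Members with a mean under 1 RPKM were not tested. Every genotype interval includes 0, and Msx2 between the sexes, at 2.22, is the interval that does not.

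Genes around the members were grouped into 9 lists, and no gene of any list passed the threshold for genotype at either stage, so the values below are descriptions. The background is the median over all tested genes, -0.06 at E11.5 with 45% of genes above 0, and -0.05 at E10.5 with 46.8% above 0. Among carriers that bring retinol and retinoic acid into the cell, 6 of 7 were tested at E11.5, with a median of -0.49 and 1 above 0. The smallest p in this list was that of Fabp5, a carrier of fatty acids and retinoic acid, with 6.31 ± 6.22 RPKM in DCKO libraries (SD, n = 10) and 19.2 ± 20.1 RPKM in control libraries (SD, n = 8), a difference of -1.43 ± 0.73 (SE, limma adjusted p = 0.902). At E10.5, 4 of the list were tested, with a median of -0.16 and 2 above 0.

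The enzymes of retinoic acid synthesis had a median of -0.03 over 6 tested genes at E11.5 and -0.37 over 4 at E10.5. The alcohol dehydrogenase Adh1, which oxidizes retinol, had the smallest p at E11.5, with 1.28 ± 2.14 RPKM in DCKO libraries (SD, n = 10) and 4.33 ± 5.82 RPKM in control libraries (SD, n = 8), and at E10.5 it was the retinol dehydrogenase Rdh11, at -1.06 ± 0.87 (log2 difference, SE). Of the 3 CYP26 enzymes that degrade retinoic acid, 2 were tested at E11.5 and none at E10.5, and Cyp26a1 differed by 0.43 ± 0.50 (SE) at E11.5. The RXR partners had no tested member above 0 at E11.5, with Rxrb at -0.18 and Rxra at -0.04, and Rxra at -0.73 with Rxrb at 0.46 at E10.5. Receptor cofactors had 3 of 9 above 0 at both stages, with medians of -0.13 at E11.5 and -0.10 at E10.5. Kat2b, an acetyltransferase that assists nuclear receptors, had 4.94 ± 2.00 RPKM in DCKO libraries (SD, n = 3) and 12.1 ± 1.62 RPKM in control libraries (SD, n = 4) at E10.5, a difference of -1.28 ± 0.52 (SE, limma adjusted p = 0.991), and the coactivator Ncoa2 was at -0.34 ± 0.32 (SE) at E11.5. Known retinoic acid target genes other than Rarb had 1 of 10 above 0 at E11.5 and a median of -0.32, the transglutaminase Tgm2 having the smallest p at -0.52 ± 0.47 (SE), and 2 of 5 above 0 at E10.5 with a median of -0.27.

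Male control 3 most often held the highest value among the retinoid genes at E11.5. Over the 34 tested genes of the 6 retinoid lists, which include the somatic marker Nr2f2, male control 3 had the highest value of all 18 libraries in 14 (41.2%), against 8.21% of all 12667 tested genes. Among these were the retinaldehyde dehydrogenase Aldh1a2, at 128 RPKM, Stra6, Dhrs3, Rara and Cyp26b1. Male DCKO 1 was highest in 8 (23.5%), near its share of all tested genes, 16.7%. It held Rarg at 84.2 RPKM, the carrier Crabp2 at 173 RPKM, Rxrb at 64.7 RPKM, Rxra at 52.1 RPKM and Cyp26a1, a retinoic acid hydroxylase that retinoic acid induces, at 18.1 RPKM. For Cyp26a1 the next library was at 1.49 RPKM. The somatic mean of male DCKO 1 was 2.47, the third highest, and its PGC marker sum of 1983 RPKM was the lowest apart from male control 3. Their part in these values was not tested.

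BMP pathway genes had 7 of 16 tested members above 0 at E11.5 (median -0.11) and 4 of 14 at E10.5 (median -0.50). Smad7, an inhibitor of TGF-beta and BMP signalling, had 25.2 ± 20.2 RPKM in DCKO libraries (SD, n = 10) and 11.96 ± 3.89 RPKM in control libraries (SD, n = 8) at E11.5. The ranges, 10.2 to 79.3 RPKM in DCKO and 6.30 to 17.4 RPKM in controls, overlapped, and the difference was 0.94 ± 0.30 (SE, limma adjusted p = 0.880). At E10.5 the BMP receptor Acvr1 was at 15.0 ± 5.99 RPKM in DCKO libraries (SD, n = 3) and 4.44 ± 1.93 RPKM in control libraries (SD, n = 4), a difference of 1.54 ± 0.61 (SE, limma adjusted p = 0.991). In the sex contrast at E11.5, 12 of 16 BMP genes were above 0, higher in females, where 56.2% of all tested genes were above 0, with a median of 0.30 against 0.07 over all genes, and none passed.

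Regulators of meiotic entry had 6 of 13 tested members above 0 at E11.5 (median -0.07) and 9 of 13 at E10.5 (median 0.35), with Stra8, Ythdc2 and Msx2 among them. Dazl, an RNA-binding protein that licenses germ cells for meiosis, had the smallest p of the list at both stages. Its E11.5 mean was 133 ± 37.4 RPKM in DCKO libraries (SD, n = 10) and 38.3 ± 25.8 RPKM in control libraries (SD, n = 8). The lowest DCKO value, 87.6 RPKM, lay above the highest control value, 81.8 RPKM. The share of all genes that separate the genotypes in this way was not counted at either stage. The lowest control value, 4.50 RPKM, was in male control 3, the library with a PGC marker sum of 441 RPKM. The difference was 2.08 ± 0.41 (SE, limma adjusted p = 0.113), and 1.74 ± 0.34 without male control 3 (SE, limma adjusted p = 0.176). Its E10.5 mean was 63.2 ± 23.4 RPKM in DCKO libraries (SD, n = 3) and 13.3 ± 12.2 RPKM in control libraries (SD, n = 4). The E10.5 difference of Dazl was 2.58 ± 0.64 (SE, limma adjusted p = 0.991). The last list held genes of the meiotic programme known to depend on Stra8, such as those of the meiotic cohesins and chromosome axes. It had 8 of 10 tested members above 0 at E11.5 (median 0.63) and 11 of 11 at E10.5 (median 0.73). Over all tested genes 45% and 46.8% were above 0. No gene of this list passed. Stra8 itself was listed at 0 in 2 of the 3 E10.5 DCKO libraries and was at 0.0235 RPKM or less in the 4 controls. Whether the list followed Stra8 was not tested. Stag3, a meiotic cohesin subunit, had 66.6 ± 14.3 RPKM in DCKO libraries (SD, n = 3) and 34.3 ± 11.3 RPKM in control libraries (SD, n = 4) at E10.5, a difference of 1.01 ± 0.40 (SE, limma adjusted p = 0.991). At E11.5 the smallest p was that of Ugt8a, with 2.30 ± 2.41 RPKM in DCKO libraries (SD, n = 10) and 0.925 ± 0.868 RPKM in control libraries (SD, n = 8), a difference of 0.74 ± 0.37 (SE, limma adjusted p = 0.902).

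**Figure D5:**
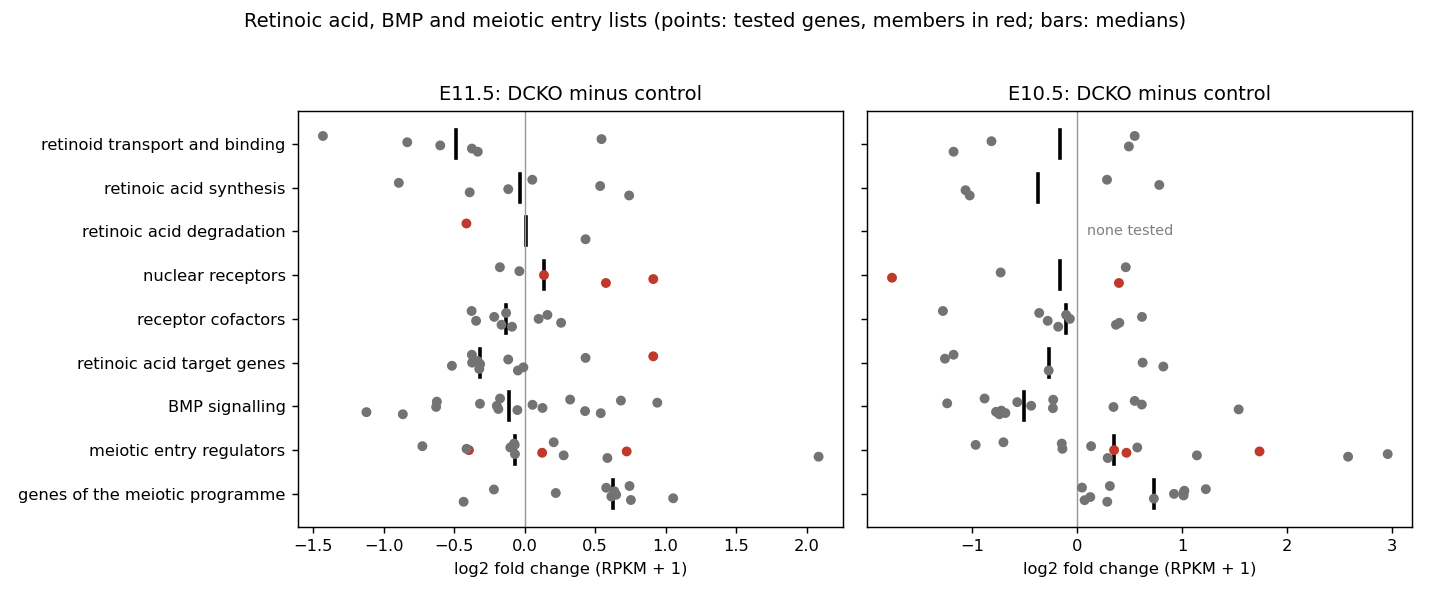
Log2 differences, DCKO minus control on log2(RPKM + 1), of the tested genes of 9 lists at E11.5 and E10.5. Points are genes, with those of the 8 genes in red, and bars are list medians. The bar of the meiotic programme stands at 0.63 at E11.5 and 0.73 at E10.5, and Dazl is the point at 2.08 in the regulators at E11.5.

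The members did not vary together across the 18 E11.5 libraries. Of their pairs, Rara and Rarb had the highest Spearman correlation, 0.567, followed by Rarg and Cyp26b1 at 0.515, and Msx2 ran opposite to Rarb at -0.542 and to Rara at -0.525. Stra8 had 0.257 with Msx2 and 0.146 with Ythdc2. The libraries share sex, genotype and preparation, so these values describe the set only. Among the 12666 other tested genes, those most like Stra8 were Tcfl5 (0.838), Lsm7 (0.807), Psmb1 (0.798), Wnk2 (0.789) and Spata1 (0.784), and because Stra8 was listed at 0 in 10 libraries these rest largely on the other 8. Those most like Msx2 were Aifm3 (0.854) and Agtrap (0.835), and those most like Cyp26b1 were Ticam1 (0.915) and Sh3bp5 (0.902). Rarg was followed most closely by Hps5 (0.906) and Hif3a (0.862), Rara by Ankrd13b (0.804) and Tspan7 (0.782), and Rarb by Zfp945 (0.825) and Ankmy2 (0.808). For Ythdc2 they were Foxj3 (0.742) and Pik3ca (0.726), and for Msx1, which lies under the filter, Stk17b (0.834) and Celsr1 (0.726).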

How the data were processed

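Polyadenylated RNA of sorted PGCs was measured in 25 libraries. The authors deposited RPKM values, 1 table per stage with 24318 genes. Per the submitters' processing notes, TopHat2 (2.1.0), Cufflinks (2.2.1), Cuffdiff and the mm9 build were used, with no role given to each. Gene models and filters are not stated. Groups follow the labels' stage, sex and genotype. Differences were computed on log2(RPKM + 1), which understates the change of low genes, for genes whose mean over a table reached 1 RPKM. limma version 3.58.1 in R version 4.3.3 was used with an intensity trend, two-sided, with Benjamini-Hochberg adjustment over all tested genes and a threshold of 0.05. The E11.5 model held 4 sex-by-genotype means, and the E10.5 model additive genotype and sex. The script was tested on simulated data. No pair of libraries was identical (highest correlation of log2 values 0.921 at E10.5 and 0.934 at E11.5). All members were named; of each list the gene with the smallest p (for the carriers and targets at E10.5 it is not reported here), and for likeness the highest Spearman correlations. Stra6, Dhrs3, Aldh1a2, Crabp2, Rxra, Rxrb and further single values were chosen after they were seen. The members, lists and tests were chosen with earlier results of these data known. Alternatives were other pseudocounts, filters and scalings, 2 blocks, a somatic covariate and leaving out libraries.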

Additional observations from a re-analysis of the deposited data

Results flagged for a closer look

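Among 36 groups of 4 to 6 E11.5 libraries (the 8 members and Dnmt1 in each sex and genotype), 13 held a value set apart from its group by more than Dixon's 95% critical value. Chance flags about 1 in 20 groups, and groups with most libraries listed at 0 are flagged by any value above 0. Stra8 stood at 17.42 RPKM in female DCKO 3 (next 1.41), at 0.1983 RPKM in female control 3 and at 0.07909 RPKM in male control 1. Msx1 stood at 0.1136 RPKM in male control 1. Rarb stood at 12.11 RPKM in female DCKO 4 and at 11.28 RPKM in male control 3. Rarg stood at 84.22 RPKM in male DCKO 1 (next 0.138). Cyp26b1 stood at 5.065 RPKM in female DCKO 4, 3.284 RPKM in male DCKO 1, 3.104 RPKM in female control 3 and 7.589 RPKM in male control 3. Dnmt1 stood at 58.43 RPKM in female DCKO 2 and at 295.8 RPKM in male control 4.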

How the results depend on the processing

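The genotype counts, 0 at E10.5 and 3 at E11.5, stayed within 1.5 times under every other setting run, and ran between 0 and 7 and between 2 and 5 genes with each library left out (7 without the male DCKO library of E10.5). The sex count of 5 became 9 with a pseudocount of 0.1, 3 with no filter, 12 with the somatic covariate, 2 with the replicate block and 1 with the title number block, and ran between 3 and 10 with each library left out. The genotype by sex count of 0 became 1 with the replicate block and ran between 0 and 1 with each library left out. Same-numbered E11.5 libraries correlated between -0.227 and 0.249 in their deviations over 24 pairs (5 over 0.1). Those of one title number correlated between -0.0229 and 0.49 over 16 pairs (7 over 0.1). These values do not settle whether either number marks a shared origin, and neither number was in the main models. The E10.5 pairs lay between 0.00675 and 0.0538, but in groups of 2 the deviations mirror each other, so they cannot settle it either. No member passed for genotype under any setting. The sex difference of Msx2 kept its direction throughout, at 2.07 to 2.59. Its adjusted p was under 0.05 with a pseudocount of 0.1, a mean of at least 5 RPKM, the somatic covariate, or without male control 2, male DCKO 1 or female DCKO 6, and ran between 0.0117 and 0.193 with each library left out and up to 0.423 (title number block) otherwise. The E11.5 genotype difference of Rarg turned to -0.52 with a pseudocount of 0.1 and -0.67 with the title number block, and ran between -0.66 and 0.41 with each library left out. That of Ythdc2 turned to -0.0529 with the replicate block and -0.0239 with the title number block. At E10.5, leaving out each library gave -0.0709 to 0.85 for Msx2, -0.47 to 0.77 for Rara, 0.0036 to 0.86 for Ythdc2 and -0.0167 to 2.19 for Stra8. A pseudocount of 0.1 gave 1.75 for Stra8, 1.83 for Rarb and -1.17 for Cyp26b1 at E11.5, and 2.96 for Stra8 and -3.70 for Rarg at E10.5. The cause of these changes was not tested. With a mean of at least 5 RPKM, the members under it have no value. Leaving out both libraries highest in somatic markers, and Dazl without male control 3, were chosen after seeing the data and changed no call. Depth is unknown, so no limit of detection can be given for values listed at 0.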
